A study of Mus musculus with 6 samples.

Results

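Integrins, laminins and the basement membrane proteins that join them were followed in the mouse lung tumour line 393P after depletion of the kinase MKK4. The genes were chosen by name, 31 in all: 18 integrin subunits, 9 laminin chains, the nidogens Nid1 and Nid2, the perlecan gene Hspg2 and the dystroglycan gene Dag1. Each was represented by the probe set (the group of array probes for a transcript) with the highest mean over the 6 arrays among those annotated to that gene alone. By this rule 30 of the 31 were measured, 17 integrins and 13 others, of 18193 genes in all. Itga11 was not analysed here.

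The cells were grown as mass populations from a primary lung tumour of mice carrying p53R172H∆g/+ and K-rasLA1/+, so both groups share these alleles. Control cells (393P-scr) carried a scrambled control vector, and depleted cells (393P-shZ) one that makes an MKK4-specific hairpin RNA (shRNA). The labels mention both retroviral infection and transfection as the way of delivery. Each group had 3 arrays of total RNA, described as triplicate cultures of 1 population, so the p-values measure the spread between cultures and not between independently derived lines. The values are the deposited array intensities, given in units on a linear scale, and their precision is limited by the number of arrays. A probe set's intensity depends on its probes, so levels are compared between groups for 1 gene and not between genes.

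Integrins are receptors made of an alpha and a beta subunit, both of which cross the cell membrane, and the pair sets which matrix protein the receptor binds. Laminins are trimers of an alpha, a beta and a gamma chain that polymerise into the basement membrane, the sheet under epithelia. Nidogens and perlecan join laminin to the other components of that sheet, and dystroglycan is a laminin receptor outside the integrin family. In lung epithelium and in tumours derived from it, these proteins hold cells to the basement membrane and take part in migration. MKK4 activates the kinases JNK and p38, and JNK phosphorylates Jun, a subunit of the transcription factor AP-1.

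The arrays were similar to each other, with median intensities of 92 to 95.76 units and correlations of 0.991 to 0.996 across genes. Map2k4, which encodes MKK4, gave 700.3, 638 and 597 units in the control cultures and 240.1, 295 and 287 in the shRNA cultures, a 2.31-fold fall (limma adjusted p = 0.000127). All 10 epithelial markers lay above 39.5 units, the highest value of the TrpnX control probe sets. These bacterial probe sets gave the background level used here and are called the bacterial control below. Other control probe sets were not used for it. The summed level of the epithelial markers was 60543 to 61429 units in the control arrays and 59642 to 61273 in the shRNA arrays. Of markers of other cell types, 5 of 9 for fibroblasts, 4 of 8 for endothelium and 4 of 8 for leukocytes lay above the background level. Their summed levels overlapped between the groups, at 533 to 584 against 506 to 594 units for fibroblasts, 608 to 784 against 552 to 729 for endothelium and 1368 to 1476 against 1299 to 1482 for leukocytes. The endothelial genes Tie1 and Vwf, the T cell gene Cd3e and the macrophage gene Lyz2 were near the floor of 1 unit. Others lay far above the bacterial control, with means in control and shRNA cells of 771 and 725 units for Csf1r, 239 and 235 for Adgre1 and 223 and 236 for Cd14, all macrophage or monocyte genes, and 394 and 345 for the endothelial gene Kdr. None of these 25 markers passed limma (1 had an unadjusted p under 0.05), while 5 of the 10 epithelial markers did, 1 higher and 4 lower, Epcam among the lower with a log2 change of -0.35. The part of these shifts in the results was not tested.

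In the shRNA cultures the integrin beta subunit gene Itgb5 was higher, while the laminin linker gene Nid1, the dystroglycan gene Dag1, the laminin chain gene Lama5 and the laminin receptor gene Itga6 were lower. These 5 of 30 genes, 1 higher and 4 lower, passed limma at a Benjamini-Hochberg adjusted p of 0.05 over all 18193 genes. The largest of the 5 changes was 1.29-fold, and 25 genes did not pass. Among all genes 11.8% passed, 6.37% as higher and 5.39% as lower, against 16.7%, 3.33% and 13.3% of the 30. The all-gene balance moved with the scaling, from 1158 higher and 981 lower (54.1% of calls higher) to 971 and 565 (63.2%) with values as deposited and 877 and 561 (61.0%) with centred medians. Brighter genes passed more often. Of genes at or above the median gene 20.8% passed, against 5 of the 16 integrin and basement membrane genes there (31.2%). The median log2 change was -0.04 for the 30 genes and -0.01 for all genes. The groups did not overlap in 8 of the 30 (26.7%), near the 26.0% of all genes, so the count of separated genes was that of the array at large. The count of 5 was 2 without shRNA replicate 2 and 2 without shRNA replicate 3, when Itgb5 and Nid1 were the genes that passed.

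**Figure D1:**
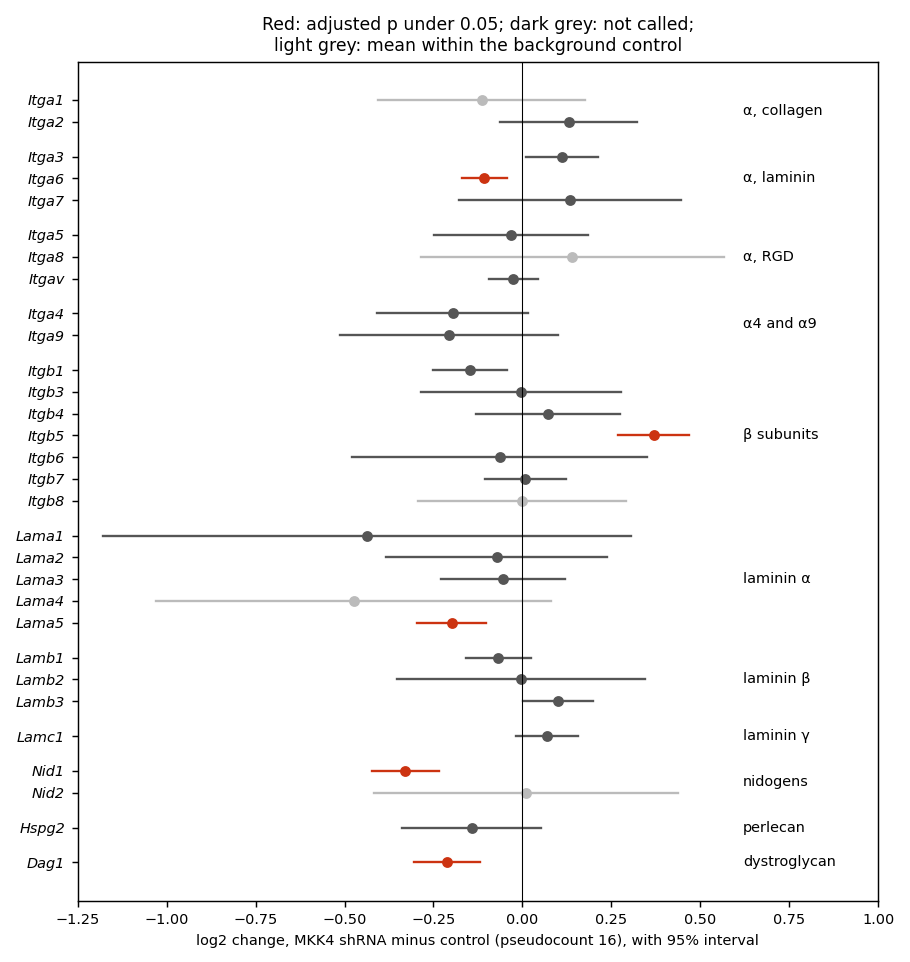
Log2 change of each of the 30 measured genes (MKK4 shRNA minus control, x axis) with its 95% interval from limma, grouped by role. Red genes passed the adjusted p of 0.05, dark grey genes did not, and light grey genes had a mean within the bacterial control's range; Itgb5 is the one red gene to the right of 0, and Itga6, Lama5, Nid1 and Dag1 lie to its left.

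Itgb5 encodes the beta subunit that pairs with the product of Itgav to form a receptor for vitronectin. It gave 736, 763 and 771 units in the control cultures and 965, 1027 and 985 in the shRNA cultures. Every shRNA culture lay above every control culture, by more than the spread within either group. The means were 757 ± 18.3 and 992 ± 31.9 units (SD, n = 3). This was a 1.29-fold rise, or 0.37 on the log2 scale (SE 0.043, 95% interval 0.27 to 0.47, limma adjusted p = 0.00158). The log2 scale here is log2 of the intensity plus 16, which understates changes of dim genes. Itgb5 passed in all 16 alternative settings, with log2 changes of 0.33 to 0.48.

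All 4 probe sets of Itgb5 rose. When each of 45037 probe sets was tested on its own, 6.37% passed, and 7 of the 72 probe sets of the 30 genes did (9.72%), 4 of them those of Itgb5. A second probe set went from 522, 508 and 534 units to 712, 784 and 734, a log2 change of 0.48. The others gave 0.50, from 550 ± 37.0 to 794 ± 39.9 units, and 0.53, from 257 ± 22.9 to 384 ± 44.8 units (SD, n = 3). Of the 4, the one with 0.48 is the only one not marked as able to match several transcripts. The kept and brightest one gave the smallest of the 4 changes.

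Itgav, the alpha subunit gene that Itgb5 needs, gave no called change. Its kept probe set gave 4220.0, 4283 and 4155 units in the control cultures and 4273, 4189.9 and 4247 in the shRNA cultures. The groups overlapped, and the log2 change was -0.03 with a 95% interval of -0.09 to 0.04 (limma adjusted p = 0.686), an interval that lies wholly below that of Itgb5. A dimmer Itgav probe set went from 198, 209.6 and 171 units to 209.3, 280.5 and 256, a log2 change of 0.32 that did not pass (adjusted p = 0.155 over probe sets). The last of the 3 above the bacterial control, at 40.2 and 47.4 units, gave 0.17 and did not pass either. Those within its range gave 0.17 and -0.29.

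Itgb3, Itgb6 and Itgb8, other beta subunits that pair with Itgav, gave no called change. Itgb1, which most matrix-binding integrins share, is described below. Itgb3, of a receptor for vitronectin and fibrinogen, gave a log2 change of 0.00 (95% interval -0.29 to 0.28). Itgb6, an epithelial subunit of a receptor that activates latent TGF-beta, gave 55.9, 49.8 and 53.1 units in the control and 36.2, 50.3 and 67.2 in the shRNA cultures, a log2 change of -0.06 (-0.48 to 0.35). Its shRNA cultures lay on both sides of the controls. Itgb8, of a receptor with the same ligand, had a mean of 36.1 units in control cells, within the range of the bacterial control. Itgb7, which pairs with Itga4, gave 1237 ± 44.6 and 1255 ± 49.9 units (SD, n = 3), a log2 change of 0.01 (-0.11 to 0.12).

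Of the integrin subunits of laminin receptors, only Itga6 passed, as lower. Itga6 pairs with Itgb1 or, in the hemidesmosome that anchors epithelial cells, with Itgb4. It gave 4816, 4765 and 4554 units in the control cultures and 4371, 4531 and 4549.6 in the shRNA cultures. The lowest control and the highest shRNA culture nearly touched, and the groups did not overlap. The log2 change was -0.11 (SE 0.028, 95% interval -0.17 to -0.04, limma adjusted p = 0.0425), with -0.08 on its other probe set, and tested over probe sets neither passed (0.0641 and 0.312). The Itga6 call held in 4 of 16 settings and ended with each single array left out except control replicate 3 (adjusted p of 0.0995 to 0.127), and with chromosome centring (log2 -0.03, adjusted p = 0.555), the median change of genes on its chromosome being -0.07.

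Itgb1, the beta subunit shared by most matrix-binding integrins, gave 2053, 1871 and 1776 units in the control cultures and 1622, 1798 and 1739 in the shRNA cultures. As deposited, the highest shRNA culture lay between the controls, while after normalization the groups did not overlap. Its log2 change was -0.15 (95% interval -0.25 to -0.04), which did not pass at adjusted p = 0.0805. The 3 Itgb1 probe sets above the bacterial control gave -0.15, -0.14 and -0.14, and none passed. Without control replicate 3 the gene passed (log2 -0.19, adjusted p = 0.0373), as it did without the dimmer genes (0.0331). Itgb4 gave 439, 535 and 515 units against 489.7, 589 and 509.6, a log2 change of 0.07 (-0.13 to 0.27) in overlapping groups.

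Itga3, the alpha subunit of another epithelial laminin receptor, gave 3682, 3474 and 3611 units in the control cultures and 4041, 4009.8 and 3713 in the shRNA cultures. The groups did not overlap as deposited, but the log2 change of 0.11 did not pass (95% interval 0.01 to 0.21, limma adjusted p = 0.159). All 3 Itga3 probe sets gave positive changes, of 0.11 to 0.20. Itga7, of a laminin receptor best known in muscle, gave 71.4 ± 9.36 and 80.5 ± 14.2 units (SD, n = 3), a log2 change of 0.13 (-0.18 to 0.45).

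Dag1 encodes dystroglycan, whose precursor is cut into a laminin-binding and a membrane-spanning subunit. It gave 3447, 3531 and 3779 units in the control cultures and 3023, 3212 and 3110.5 in the shRNA cultures. All 3 shRNA cultures lay below all 3 controls. The fall was 0.21 on the log2 scale, or 1.16-fold (SE 0.040, 95% interval -0.31 to -0.12 for the change, limma adjusted p = 0.0128). Its other 3 probe sets gave -0.21, -0.22 and -0.27, none of which passed on its own (adjusted p of 0.0861 to 0.153). The call ended without shRNA replicate 2 (0.0535) and without shRNA replicate 3 (0.0642), with log2 changes of -0.22 and -0.21. It was also lost with the mean of all probe sets (log2 -0.23, limma adjusted p = 0.0503) and with an untrended prior (0.0848).

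**Figure D2:**
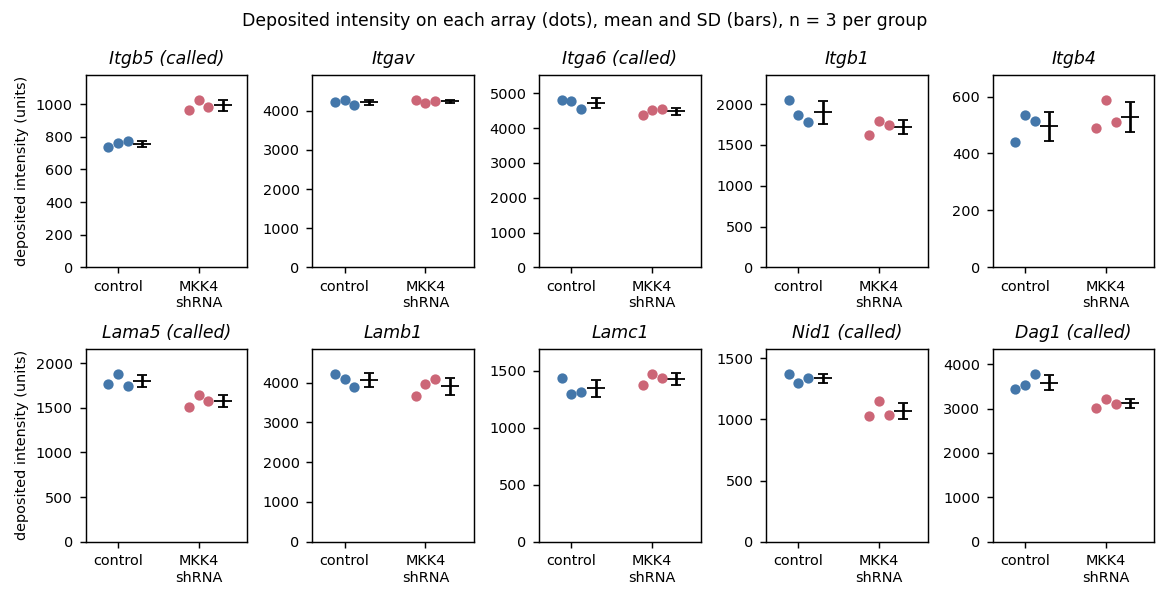
Deposited intensity (units, y axis from 0) of the 5 called genes and of Itgav, Itgb1, Itgb4, Lamb1 and Lamc1, whose products join theirs in receptors or trimers, with 1 dot per array and the mean and SD beside the dots (n = 3 per group). The Itgb5 dots of the shRNA cultures lie at 965 to 1027 units, above 736 to 771 in the control, while the Itgav dots overlap.

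Among the laminin alpha chains, Lama5 was lower. Its product is the alpha chain of the most widespread laminins of epithelial basement membranes. Lama5 gave 1769, 1877 and 1748 units in the control cultures and 1511, 1644 and 1571 in the shRNA cultures. The groups did not overlap. The log2 change was -0.20 (SE 0.042, 95% interval -0.30 to -0.10, limma adjusted p = 0.0205). A second probe set of similar brightness gave -0.10 (adjusted p = 0.335) and a dim one 0.00. The mean of the 3 did not pass (-0.10, adjusted p = 0.285). The call also ended without control replicate 3 (0.0527) and without shRNA replicate 1 (0.0596), 2 (0.0692) or 3 (0.083), and with chromosome centring (-0.12, adjusted p = 0.118). Centred medians (limma adjusted p = 0.0523) and an untrended prior (0.0984) ended it too.

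The chains that join the Lama5 product in trimers gave no called change. Lamb1, the beta chain of many of these trimers, gave 4218, 4090.3 and 3893 units against 3676, 3974 and 4092, a log2 change of -0.07 (95% interval -0.16 to 0.02). Lamc1, the gamma chain of most laminins, gave 1432, 1296 and 1314 units against 1374, 1471 and 1435, a log2 change of 0.07 (-0.02 to 0.16). Groups overlapped in both. Lamb2 gave 119 ± 1.01 and 122 ± 27.4 units (SD, n = 3), and its log2 change of 0.00 had a wide interval of -0.35 to 0.34.

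Lama3 and Lamb3 encode chains of the laminin that hemidesmosomes bind, also known from invasive carcinoma. Lama3 gave 767, 827 and 666 units in the control cultures and 706, 713 and 779 in the shRNA cultures, a log2 change of -0.05 (95% interval -0.23 to 0.12). Lamb3 gave 1647, 1778 and 1659 against 1735, 1885 and 1844, a log2 change of 0.10 (0.00 to 0.20, limma adjusted p = 0.197). Neither passed, and both pairs of groups overlapped. The remaining alpha chains were dim. Lama1 gave 103, 88.3 and 91.0 units in the control cultures and 97.4, 92.9 and 28.1 in the shRNA cultures, so that its log2 change of -0.44 (-1.18 to 0.30) rested on shRNA replicate 3; without it the change was -0.01 (adjusted p = 0.986). Lama2 gave 115 ± 17.6 and 109 ± 14.5 units (SD, n = 3). Lama4 lay within the range of the bacterial control, at 13.6 units in control cells. It passed without shRNA replicate 1 (log2 -0.77, adjusted p = 0.0161) and in no other setting.

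Nid1, the gene of nidogen-1, which joins laminin through its gamma chain to collagen IV, had the largest called fall of the 30 genes. It gave 1372, 1297 and 1343 units in the control cultures and 1026, 1149 and 1039 in the shRNA cultures. The lowest control lay well above the highest shRNA culture. The means were 1338 ± 37.8 and 1072 ± 67.3 units (SD, n = 3). The fall was 1.26-fold, or 0.33 on the log2 scale (SE 0.041, 95% interval -0.42 to -0.23 for the change, limma adjusted p = 0.00204), and it passed in 15 of 16 settings.

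The exception for Nid1 was the mean of its 3 probe sets, which turned the change to 0.07 (adjusted p = 0.622). A dimmer probe set went the other way, from 129, 94.0 and 84.7 units in the control cultures to 128, 157 and 148 in the shRNA cultures. Its log2 change was 0.44 (SE 0.148, adjusted p = 0.153 over probe sets) and the groups overlapped. The last Nid1 probe set lay within the range of the bacterial control. The direction for Nid1 therefore rests on its brightest probe set.

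**Figure D3:**
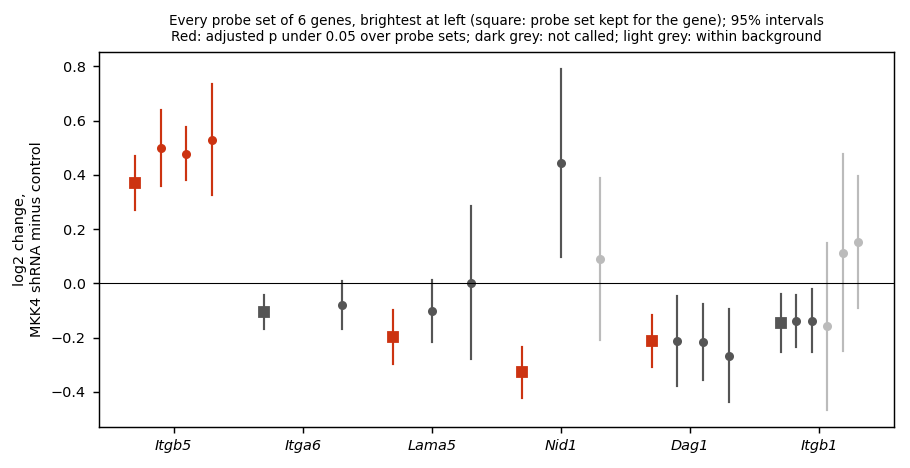
Log2 change (MKK4 shRNA minus control, y axis) with 95% interval for every probe set of Itgb5, Itga6, Lama5, Nid1, Dag1 and Itgb1, brightest at the left of each gene, with squares for the probe set kept. The 4 Itgb5 probe sets lie at 0.37 to 0.53 and the 4 of Dag1 at -0.27 to -0.21, while those of Nid1 lie on both sides of 0.

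Nid2, the gene of nidogen-2, lay within the range of the bacterial control, with 12.5 and 13.3 units in the 2 groups. Hspg2, the gene of perlecan, a heparan sulfate proteoglycan of basement membranes, gave 979, 1008 and 1043 units in the control cultures and 1001, 923 and 837 in the shRNA cultures. Its groups overlapped, and the log2 change was -0.14 (95% interval -0.34 to 0.05, limma adjusted p = 0.375). It was -0.24 without shRNA replicate 1 (adjusted p = 0.0515) and -0.07 without shRNA replicate 3 (0.717).

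The collagen-binding alpha subunits did not pass. Itga2 gave 166, 167 and 175 units in the control cultures and 190.3, 176 and 201.3 in the shRNA cultures. Its groups were separated by less than 1 unit as deposited, and the log2 change was 0.13 (95% interval -0.06 to 0.32, limma adjusted p = 0.415). Itga1 lay within the range of the bacterial control in both groups, at 5.80 and 4.10 units.

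None of the alpha subunits that bind the RGD motif of fibronectin and related proteins passed. Neither did Itga4 and Itga9, which are grouped apart from them. Itga5, of the main fibronectin receptor, gave 117 ± 9.52 and 114 ± 2.80 units (SD, n = 3), a log2 change of -0.03 (95% interval -0.25 to 0.18). Itga8, of a receptor for nephronectin, lay within the range of the bacterial control at 15.1 and 18.5 units. Itga4, of a receptor for Vcam1 and fibronectin, gave 79.7, 84.6 and 78.6 units in the control cultures and 68.6, 71.6 and 66.8 in the shRNA cultures. Its groups did not overlap, but the log2 change of -0.20 did not pass (-0.41 to 0.02, adjusted p = 0.247), and another Itga4 probe set above the bacterial control gave 0.05. Itga9, of a receptor for tenascin C, gave 2216, 3071 and 2350.2 units against 2397, 1994 and 2225, a log2 change of -0.21 (-0.51 to 0.10) in which control replicate 2 stood apart. Without that culture it was -0.06 (adjusted p = 0.802), and the other Itga9 probe set above the bacterial control gave 0.03.

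Promoter sequence shows what lies just upstream of the genes, called or not. RefSeq entries (GRCm38.p6) were found for 21 of the 30 genes, among them 4 of the 5 called, and gave 25 windows of the 250 bases before an annotated start, the pair of windows of Dag1 and that of Lamb3 each sharing bases. None of the 25 held the AP-1 motif TGANTCA or the cyclic AMP response element TGACGTCA on either strand. Of all 32851 such windows 6.75% and 1.55% held them, shares so low that finding none in 25 is close to them. The E-box CAGGTG, a core bound by Snail family repressors among others, was in 7 of 25 windows (28.0%) against 17.2% of all, and the GC box GGGCGG in 12 (48.0%) against 32.7%. These matches describe the windows and are not evidence of binding. The windows of the called genes are printed from 5′ to 3′ on the gene's strand. Matches to the E-box and GC box on either strand are in capitals. Each printed window holds the GC box, and those of Itgb5 and Lama5 also hold an E-box. Any part of these motifs in the changes was not tested. The Itgb5 window is chr16:33829415-33829664 on the plus strand, that of Nid1 chr13:13437352-13437601 on the plus strand, that of Lama5 chr2:180225860-180226109 on the minus strand, and that of the upstream start of Dag1 chr9:108263959-108264208 on the minus strand.
Itgb5: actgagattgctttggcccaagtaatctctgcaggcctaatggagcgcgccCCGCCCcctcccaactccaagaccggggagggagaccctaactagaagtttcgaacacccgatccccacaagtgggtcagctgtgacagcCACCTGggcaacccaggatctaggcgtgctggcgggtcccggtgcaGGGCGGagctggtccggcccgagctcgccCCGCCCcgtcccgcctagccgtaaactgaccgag
Nid1: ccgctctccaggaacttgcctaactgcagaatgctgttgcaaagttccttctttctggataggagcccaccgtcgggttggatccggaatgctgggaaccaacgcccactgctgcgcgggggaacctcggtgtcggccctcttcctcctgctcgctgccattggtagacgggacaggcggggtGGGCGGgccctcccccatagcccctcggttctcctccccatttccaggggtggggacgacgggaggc
Lama5: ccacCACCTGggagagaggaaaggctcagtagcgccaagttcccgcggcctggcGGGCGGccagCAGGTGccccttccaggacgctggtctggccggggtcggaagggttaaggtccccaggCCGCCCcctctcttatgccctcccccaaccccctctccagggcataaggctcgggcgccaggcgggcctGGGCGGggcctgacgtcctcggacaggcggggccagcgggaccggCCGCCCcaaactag
Dag1: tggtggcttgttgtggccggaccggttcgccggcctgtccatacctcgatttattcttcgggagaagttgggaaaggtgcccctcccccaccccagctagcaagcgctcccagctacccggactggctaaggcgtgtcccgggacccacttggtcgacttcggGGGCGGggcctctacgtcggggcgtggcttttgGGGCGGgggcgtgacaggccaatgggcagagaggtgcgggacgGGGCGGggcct

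Genes that work with these receptors and matrix proteins were read from lists made by function, each gene by its brightest probe set. Of 33 measured adaptors and kinases of integrin adhesions, 3 rose and 8 fell, or 33.3% called against 11.8% of all genes, with a median log2 change of -0.07. Of these 33 genes 32 lay above the bacterial control, and 15.1% of all genes above it passed, or 20.8% of those at or above the median gene. Parvb, which encodes beta-parvin, a partner of the integrin-linked kinase, rose from 891 ± 44.0 to 1174 ± 5.70 units (SD, n = 3), by 0.38 on the log2 scale (limma adjusted p = 0.00134). Fermt2, the gene of kindlin-2, which binds integrin beta tails, rose by 0.24. Lpp, a gene of a LIM protein of adhesions, fell from 3609 ± 111 to 3127 ± 68.8 units (SD, n = 3), by 0.22, and Ilk, the gene of the integrin-linked kinase itself, from 1839 ± 24.5 to 1603 ± 44.6 units (SD, n = 3), by 0.20. Components of the same adhesion complex thus passed in opposite directions.

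Of 20 other basement membrane genes, 3 rose and 3 fell, or 30.0% called against 11.8% of all genes and 15.1% of genes above the bacterial control; 12 of the 20 lay above it. Npnt, the gene of nephronectin, fell from 4811 ± 96.5 to 3089 ± 157 units (SD, n = 3), by 0.65 on the log2 scale (limma adjusted p = 2.66e-05). Pxdn, the gene of peroxidasin, which cross-links collagen IV, fell by 0.41, and Col18a1, the gene of a basement membrane collagen, rose by 0.27. Ntn4, a netrin gene whose product binds laminin, passed with values of 11.3 and 27.4 units, both within the range of the bacterial control.

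Of 17 measured genes on the integrin ligand list, 4 rose (23.5%, against 6.37% of all genes). Of the 17, 15 lay above the bacterial control, where 8.17% of genes passed as higher and 6.94% as lower. None on this list fell (5.39% of all genes did), and the other 13 did not pass. Nephronectin and the laminin chains also bind integrins but were counted in other groups. Of their genes Npnt (-0.65) and Lama5 (-0.20) passed, both as lower. Vcam1, whose product binds the Itga4 receptor, rose from 108 ± 8.50 to 472 ± 75.8 units (SD, n = 3), by 1.94 on the log2 scale. The tenascin C gene Tnc rose by 0.75 (limma adjusted p = 0.04). Fn1, the gene of fibronectin, rose from 3415 ± 203 to 4844 ± 98.8 units (SD, n = 3), by 0.49 (limma adjusted p = 0.000611), and Ccn2, a matricellular protein gene, by 0.25. The median over the 17 was -0.03.

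Among 12 other matrix receptors 2 rose and 2 fell, or 33.3% called against 11.8% of all genes. All 12 lay above the bacterial control, where 15.1% of genes passed. Lgals3, the gene of galectin-3, rose by 0.59 on the log2 scale and Cd47, the gene of a thrombospondin receptor that associates with integrins, by 0.35. Ddr1, a collagen receptor kinase gene, fell by 0.34 and the syndecan gene Sdc4 by 0.20. In the complex around dystroglycan, 1 of 14 measured genes passed, the syntrophin gene Sntb2, which fell by 0.31 (limma adjusted p = 0.04). That share, 7.14%, was below the 11.8% of all genes.

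No gene passed among 6 of the hemidesmosome or among 10 integrin and laminin subunit genes outside the 31. At an unadjusted p of 0.05, limma gave 3 of the 6 and 1 of the 10, against 4384 of all 18193 genes, and the smallest adjusted p was 0.0581 and 0.203. The median log2 change was -0.09 and 0.06.

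**Figure D4:**
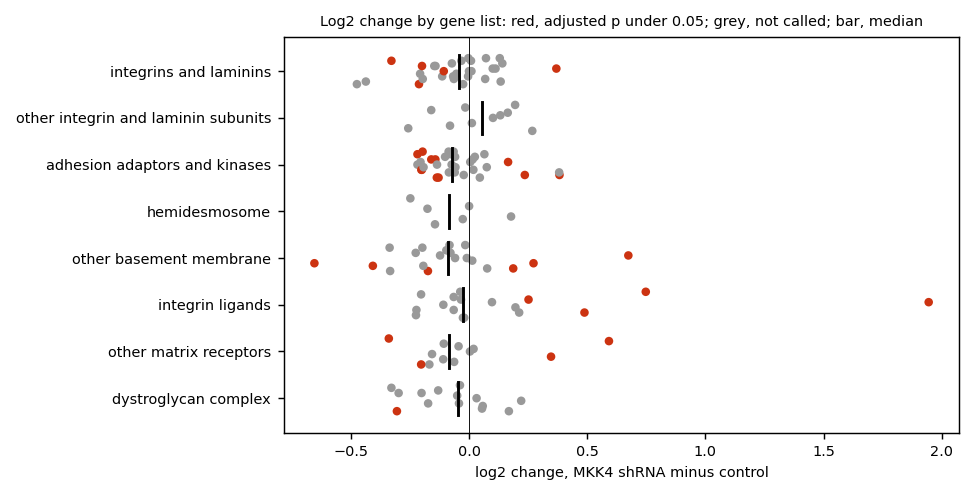
Log2 change (MKK4 shRNA minus control, x axis) of each gene in the integrin and laminin group and in 7 lists of genes that work with it, red where the adjusted p was under 0.05 and with a bar at each list's median. The called genes of the integrin ligand list all lie to the right of 0, out to 1.94 for Vcam1. Npnt (-0.65) and Lama5 (-0.20), whose products also bind integrins, lie to the left in other rows. Every list median lies between -0.09 and 0.06.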

How the data were processed

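Biotinylated RNA from 6 cultures was read on 6 Affymetrix arrays of 1 colour (per the labels' protocols). The deposited table gives linear intensities for 45101 probe sets. How the authors summarised, background-corrected and normalized these deposited intensities is not given in the sources used here. Each array holds 1475 to 1633 values of exactly 1, so very dim genes carry little information.

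Here 16 was added, log2 taken, quantile normalization applied between arrays (limma 3.58.1, R 4.3.3), and 64 control probe sets left out. GEO's platform annotation names 1 gene for 34945 probe sets and several for 932. The brightest single-gene probe set by mean log2 value gave 18193 genes. The test was limma's lmFit and trended eBayes across all genes, with Benjamini-Hochberg adjustment. An interval or SE is from that fit. Means and SDs are of deposited intensities, and whether groups overlap was read from them unless stated. After normalization the groups of Itgb1 and Lamb3 no longer overlapped, while those of Itga2 and Itga3 did.

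The 31 genes, the gene lists and the chromosome centring were chosen with earlier results of these data known. Per-array values are given for genes past the threshold, for genes whose groups do not overlap and for others of interest by role, the last chosen after their values were seen. At most 4 called genes, by size, are named per list. Alternatives were other normalizations, pseudocounts, probe set rules, a filter on dim genes, no trend, a replicate block, chromosome centring and leaving out each array.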

Additional observations from a re-analysis of the deposited data

How the results depend on the processing

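Itgb5 passed as higher in all 16 settings, Nid1 as lower in 15, Dag1 in 12, Lama5 in 8 and Itga6 in 4. The count of 5 called genes was 3 with arrays centred on their medians, 3 with chromosome centring, 2 with an untrended prior and 1 with the mean of all probe sets, and ran from 2 to 5 with single arrays left out. The lower ones numbered 2, 2, 1 and 0 in these settings and 1 to 4 with arrays left out. With the mean of all probe sets limma gave 2 lower and 4 higher genes at an unadjusted p of 0.05. The main fit gave 5 lower and 3 higher at that level. Over all genes 1127 were called without a trend, 1206 with the replicate block and 1159 to 1662 with arrays left out, against 2139. The labels do not say whether the replicate letters pair the cultures. The deviations of same-lettered cultures correlated at -0.03, -0.01 and -0.11, so they showed no shared shift, which does not settle how the cultures were handled. With the block the called genes were 4, all but Itga6. Where the cause of a lost call is not plain from fewer arrays or genes, the cause was not tested.

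The sign changed under some setting for 16 genes, of which Nid1 alone was called, and 14 kept their sign. With the mean of all probe sets the log2 changes turned to 0.059 for Itga1, 0.070 for Itgav, 0.064 for Itga4, 0.14 for Itgb3, 0.027 for Itgb6, 0.13 for Lama3 and 0.068 for Nid1. Each of these means includes probe sets within the range of the bacterial control. With values as deposited the changes turned to 0.0058 for Itgav, 0.0018 for Itgb3 and 0.0083 for Lamb2, and with centred medians to 0.0015 for Itgav and 0.0040 for Lamb2. Chromosome centring gave 0.049 for Itgav, 0.0099 for Itgb6, -0.048 for Itgb7, 0.031 for Itgb8 and 0.0095 for Lamb2. A pseudocount of 64 gave 0.0020 for Itgb8 and 0.0022 for Lamb2, and a pseudocount of 1 gave -0.077 for Nid2. After leaving out probe sets marked as matching several transcripts, Lama3 gave 0.31 and Lamb1 0.00010. The Lama3 value came from a probe set at 17.5 and 25.6 units, within the range of the bacterial control. With single arrays left out, the ranges that crossed 0 were -0.087 to 0.020 for Itga5, -0.051 to 0.28 for Itga8, -0.12 to 0.056 for Itgb3, -0.021 to 0.13 for Itgb4, -0.25 to 0.12 for Itgb6, -0.036 to 0.040 for Itgb7, -0.074 to 0.11 for Itgb8, -0.14 to 0.036 for Lama2, -0.12 to 0.014 for Lama3, -0.10 to 0.18 for Lamb2 and -0.13 to 0.23 for Nid2. The intervals of some dim genes were wide, as for Nid2 (-0.42 to 0.44).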
